A study of Mus musculus with 2 samples.

Results

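The globins described here are the 7 genes of the mouse alpha and beta globin clusters listed as Hba-x, Hba-a1, Hba-a2, Hbb-y, Hbb-bh1, Hbb-bs and Hbb-bt, chosen by gene symbol from 38926 listed genes. All 7 were found in both libraries. RNA came from pleuroperitoneal folds (PPFs), the paired embryonic folds from which diaphragm connective tissue arises. The embryos were wild type, at embryonic day 12.5, on a mixed 129s/SvlmJ-C57/BL6J background. The series holds 1 group of 2 libraries, replicates 1 and 2, each made from 2 pooled PPF pairs dissected by hand after heart and lungs had been taken away. No other tissue, stage or genotype stands beside them, and the labels do not tie the pairs to litters, so the spread between the libraries may be partly technical.

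Hemoglobin is a tetramer of paired alpha-type and beta-type globin chains. In the mouse, the first red cells are primitive erythrocytes, which arise in the yolk sac, circulate with nuclei and make the embryonic chains zeta (from Hba-x), epsilon-y (from Hbb-y) and beta-h1 (from Hbb-bh1). Definitive erythrocytes, made in the fetal liver at this age, use the adult-type chains of Hba-a1, Hba-a2, Hbb-bs and Hbb-bt. Primitive cells also take up adult-type globin expression as they mature, so a globin transcript does not by itself name the cell it came from.

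The adult-type genes come as near-identical pairs, which decides what a read can tell. The coding sequences of Hba-a1 and Hba-a2 differed at 1 of 429 bases, C381T, with positions counted from 1 at the first base of the start codon. Those of Hbb-bs and Hbb-bt differed at 1 of 444 bases, C417T. The embryonic-type genes were far from these: Hba-x differed from Hba-a1 at 163 bases (62.0% identity), and Hbb-y from Hbb-bs at 114 (74.3% identity) and from Hbb-bh1 at 105 (76.4% identity). The 60 coding bases around each of the single differences are shown because they hold the one place where the coding sequence tells the pair apart. They come from the GENCODE M21 transcripts on GRCm38, 5′ to 3′. Capitals mark bases that differ from Hba-a1 or Hbb-bs, and in the adult-type pairs the base that parts them. The alpha-type stretches cover coding bases 351 to 410, at chr11:32277930-32277989 for Hba-x, chr11:32284313-32284372 for Hba-a1 and chr11:32297130-32297189 for Hba-a2, all on the plus strand.
Hba-x: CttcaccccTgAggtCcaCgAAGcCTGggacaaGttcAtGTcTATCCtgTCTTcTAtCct
Hba-a1: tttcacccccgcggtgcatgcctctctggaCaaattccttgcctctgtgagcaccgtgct
Hba-a2: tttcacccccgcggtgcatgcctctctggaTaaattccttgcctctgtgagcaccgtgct

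The beta-type stretches cover coding bases 385 to 444, the end of the coding sequence with its stop codon, on the minus strand at chr7:103851874-103851933 for Hbb-y, chr7:103841752-103841811 for Hbb-bh1, chr7:103826665-103826724 for Hbb-bs and chr7:103812656-103812715 for Hbb-bt.
Hbb-y: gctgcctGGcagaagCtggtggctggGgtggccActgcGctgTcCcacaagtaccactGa
Hbb-bh1: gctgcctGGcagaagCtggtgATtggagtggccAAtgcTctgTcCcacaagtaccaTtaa
Hbb-bs: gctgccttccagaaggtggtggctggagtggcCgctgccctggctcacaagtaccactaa
Hbb-bt: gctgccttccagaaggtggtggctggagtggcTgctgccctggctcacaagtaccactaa

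Across whole transcripts the same split was seen. A window of 75 bases, standing in for a read, was called unique when it occurred in the GENCODE transcripts of no other gene on either strand. Windows were taken from a single GENCODE transcript of each gene, which was often shorter than the listed gene length. The listed length was 863 against 628 bases for Hbb-bs, 812 against 699 for Hba-a1 and 938 against 801 for Hba-x. It was 667 against 554 for Hba-a2, 661 against 633 for Hbb-y, 614 against 613 for Hbb-bh1, and 703 in both for Hbb-bt. Unique windows outside the transcript used were not counted. All windows of Hba-x, Hbb-y and Hbb-bh1 were unique. Of the windows of Hba-a1, 236 of 625 were unique (37.8%), and of those of Hba-a2, 91 of 480 (19.0%). Of the Hbb-bs windows 198 of 554 were unique (35.7%), and of the Hbb-bt windows 273 of 629 (43.4%). Each shared window was shared with the adult-type partner and with no other gene. Inside the Hba-a1 transcript the unique windows were the first 161, before its RefSeq start site, and the 75 that cover the coding difference. Read length and the treatment of reads that match several places were not stated in the labels or files read here. The mixed background may carry globin alleles that differ from the reference, which was not tested, and Hbb-b1 and Hbb-b2, the adult beta genes of another mouse haplotype, were not analysed here.

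**Figure D1:**
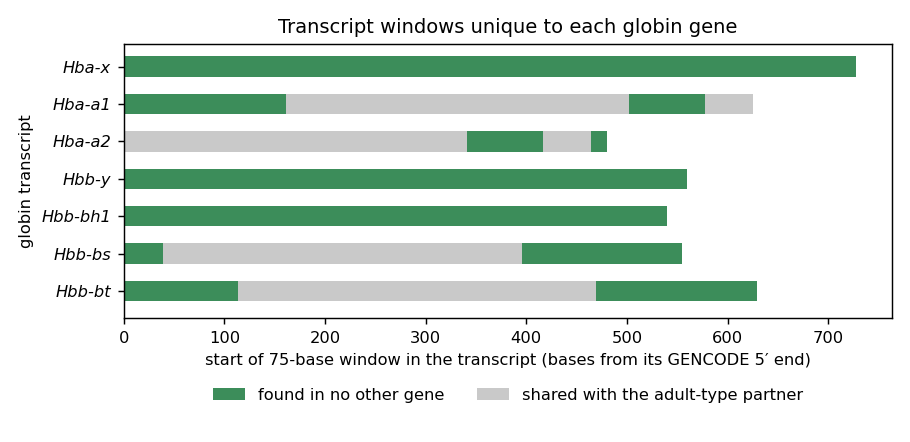
Each bar is the GENCODE transcript of 1 globin gene, and its colour shows whether the 75-base window starting at each base (x axis, in bases from the 5′ end) occurred in no other gene (green) or also in the adult-type partner (grey). The embryonic-type transcripts Hba-x, Hbb-y and Hbb-bh1 are green throughout, whereas Hba-a2 has 91 unique windows of 480.

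Levels are given as the authors' TPM, in which each count is divided by the gene's length and every library is brought to an equal sum, so that genes can be compared. Replicate 1 held 26370253 counts in all, and replicate 2 held 23255957. All 7 globins had at least 1 TPM in both libraries, as did 44.4% of all listed genes, and the exons of none of the 7 overlapped those of another annotated gene. Fewer red cells and less globin RNA per cell cannot be told apart in these bulk libraries.

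Among the embryonic-type genes, Hbb-y (chromosome 7, 103851745 to 103853240), which encodes the epsilon-y chain, stood at 4462 TPM in replicate 1 and 4104 TPM in replicate 2, from 25025 and 19721 counts. It ranked 10th of all listed genes in both libraries. Hba-x (chromosome 11, 32276400 to 32278116), which encodes the zeta chain, stood at 393 TPM in replicate 1 and 399 TPM in replicate 2, the closest match between libraries of the 7 genes, with a coefficient of variation of 1.15%. Hbb-bh1 (chromosome 7, 103841636 to 103843164), the other embryonic beta-type gene, stood at 111 and 97.5 TPM in replicates 1 and 2, from 576 and 435 counts. The embryonic beta-type output was therefore nearly all Hbb-y, with Hbb-bh1 holding 2.42% and 2.32% of it in replicates 1 and 2.

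Among the adult-type genes, Hba-a1 (chromosome 11, 32283511 to 32284465) stood at 585 TPM in replicate 1 and 523 TPM in replicate 2, and its partner Hba-a2 (chromosome 11, 32296489 to 32297298) at 253 and 331 TPM. Both encode adult alpha globin. Hbb-bs (chromosome 7, 103826534 to 103828078) stood at 444 TPM in replicate 1 and 508 TPM in replicate 2, and Hbb-bt (chromosome 7, 103812524 to 103813996) at 254 and 282 TPM. These encode the adult beta chains of the haplotype in the reference genome. Each partner split unevenly by counts: Hba-a1 had 2.82 times the counts of Hba-a2 in replicate 1 and 1.92 times in replicate 2, while Hbb-bs had 2.15 and 2.21 times those of Hbb-bt. How reads of each pair were divided by the counting was not tested, so the split within a pair is uncertain.

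By mean TPM (± SD, n = 2 libraries) the order was Hbb-y at 4283 ± 253, Hba-a1 at 554 ± 43.8, Hbb-bs at 476 ± 45.3, Hba-x at 396 ± 4.56, Hba-a2 at 292 ± 55.8, Hbb-bt at 268 ± 19.8 and Hbb-bh1 at 104 ± 9.26. A step in this order was taken as beyond the spread where the difference of means was larger than the sum of the 2 SDs. Hba-a1 and Hbb-bs did not differ beyond it (78.4 against 89.04 TPM), nor did Hba-a2 and Hbb-bt (24.3 against 75.6 TPM). The other neighbours did, the widest step being that from Hbb-y to Hba-a1, which was 7.62-fold in replicate 1 and 7.84-fold in replicate 2. This order is that of the deposited TPM. The place of Hba-x above Hba-a2 and Hbb-bt turned round in both libraries under each of the 4 unique-window settings used for the shares. With 50-base windows Hba-a2 stood at 21.7 and 24.3 counts per unique window in replicates 1 and 2. That was above Hba-a1 (19.1 and 14.6) and Hbb-bs (16.4 and 16.1). With 75 and 100 bases Hba-a2 stood above Hba-a1 in replicate 2 only, and from the RefSeq start sites in neither library.

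**Figure D2:**
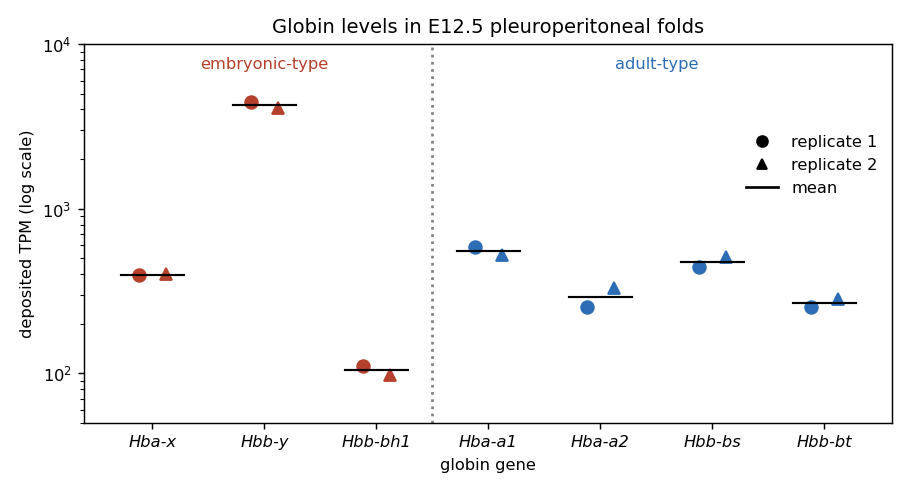
Deposited TPM (log scale) of the 3 embryonic-type and 4 adult-type globin genes in replicate 1 (circles) and replicate 2 (triangles), with the mean as a line. Hbb-y stands at 4462 and 4104 TPM, above the other 6 genes, which lie between 97.5 and 585 TPM.

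Embryonic-type transcripts made up most of the deposited globin signal. The 3 embryonic-type genes summed to 4966 TPM in replicate 1 and 4601 TPM in replicate 2, against 1535 and 1644 TPM for the 4 adult-type genes. That is an embryonic-type share of 76.4% in replicate 1 and 73.7% in replicate 2, and a ratio to adult-type of 3.23 and 2.80. By counts, which do not correct for length, the share was 73.8% in replicate 1 (95% Clopper-Pearson interval 73.3 to 74.2) and 71.1% in replicate 2 (70.6 to 71.5). The difference between the sums, 4783 ± 258 TPM for embryonic-type against 1590 ± 77.1 TPM for adult-type genes (SD, n = 2), was larger than the spread between the libraries.

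The clusters differed in this respect. In the beta cluster the embryonic-type genes Hbb-y and Hbb-bh1 held 86.8% of the TPM in replicate 1 and 84.2% in replicate 2. In the alpha cluster the embryonic-type Hba-x held 31.9% in replicate 1 and 31.8% in replicate 2, so that the adult-type pair Hba-a1 and Hba-a2 held the larger part in both. Embryonic-type counts gave the same order, with 84.3% and 81.3% of beta-type counts and 36.4% and 36.7% of alpha-type counts in replicates 1 and 2. The gap between the clusters was larger than the spread between libraries, whose SD was 1.83 percentage points for the beta cluster and 0.0591 for the alpha cluster.

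Alpha-type and beta-type sums were unequal. The 3 alpha-type genes summed to 1231 TPM in replicate 1 and 1254 TPM in replicate 2, against 5270 and 4991 TPM for the 4 beta-type genes, so that alpha-type transcripts held 18.9% and 20.1% of globin TPM. Hbb-y by itself held 68.6% and 65.7%.

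These shares depended on how reads shared within the adult-type pairs are handled. Each count was divided by the number of unique windows, as would apply if reads matching several places had been left out. These windows cover a single transcript of each gene, so unique windows elsewhere in the listed gene are missed and the shares are approximate. For windows of 75 bases the embryonic-type share was then 47.8% in replicate 1 and 43.3% in replicate 2. For 50 bases the mean was 41.1%. For 100 bases the share was 51.3% in replicate 1 and 47.0% in replicate 2, with a mean of 49.1%. With each transcript begun at its RefSeq start site, the mean for 75 bases was 34.9%. The alpha-type share in replicates 1 and 2 was 35.4% and 37.5% with 75-base windows over the whole transcripts. With windows from the RefSeq start sites it was 51.7% and 51.6%, so that alpha-type transcripts were then in the majority. Whether embryonic-type or adult-type transcripts were in the majority over all 7 genes therefore turned on this choice. Within the beta cluster the order did not turn under any of these 4 window settings: the embryonic-type share ranged in mean from 63.6% to 66.2%. In the alpha cluster that share ranged in mean from 7.97% to 13.5%. There the order could not have turned, because all Hba-x windows are unique and only the adult-type counts are divided by fewer windows. Hbb-y was the highest gene and Hbb-bh1 the lowest with windows of 50, 75 and 100 bases in both libraries, but with the RefSeq start sites Hba-a1 stood above Hbb-y, at 53.8 and 41.2 counts per unique window against 45.5 and 35.9. Hba-x ranked 6th of the 7 genes under all 4 settings in both libraries, and with 75-base windows stood at 4.30 and 3.75 counts per unique window, against 15.7 and 17.7 for Hba-a2 and 5.54 and 5.27 for Hbb-bt.

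**Figure D3:**
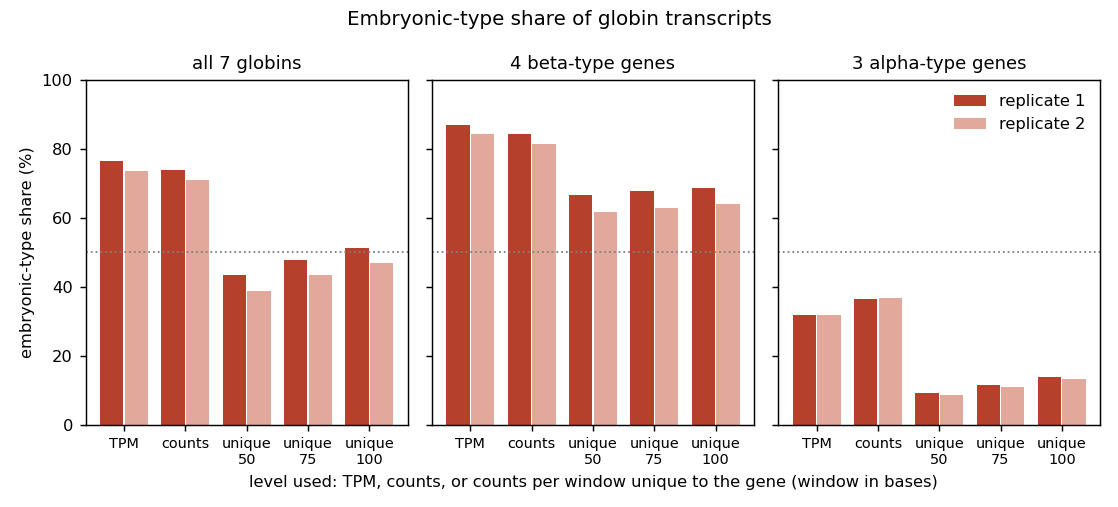
Embryonic-type share (%) of all 7 globins, of the 4 beta-type genes and of the 3 alpha-type genes in replicate 1 (dark bars) and replicate 2 (light bars), by TPM, by counts and by counts per unique window of 50, 75 or 100 bases. The share of the beta-type genes stays above the dotted line at 50% in every bar. That of the alpha-type genes lies below it, and division by unique windows could only lower it. The share over all 7 genes is 76.4% by TPM and 47.8% by unique 75-base windows in replicate 1.

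The proximal promoters of Hbb-y and Hbb-bs, the highest beta-type genes of the embryonic and adult type, are shown because the motifs by which globin promoters are known can be compared in them. CACCC is the core of the site bound by the erythroid factor Klf1, and CCAAT is a general promoter box. ATATAA was searched as one form of the TATA box, with ATAAAA searched as another, and GATAA as the core of sites for Gata1. Sequences are from RefSeq (GRCm38.p6) and cover the 103 bases that end at base -10 before the start site, on the minus strand, at chr7:103853217-103853319 for Hbb-y and chr7:103827938-103828040 for Hbb-bs. Capitals mark the CACCC motif, the box and the TATA forms on the gene's strand.
Hbb-y: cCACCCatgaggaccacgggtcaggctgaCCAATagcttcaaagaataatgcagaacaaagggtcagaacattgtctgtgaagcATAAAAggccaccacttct
Hbb-bs: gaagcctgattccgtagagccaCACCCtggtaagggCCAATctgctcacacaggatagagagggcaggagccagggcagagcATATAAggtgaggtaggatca

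In Hbb-y the CACCC began at base -111, the CCAAT at -83 and the ATAAAA at -28, and in Hbb-bs the CACCC at -90, the CCAAT at -76 and the ATATAA at -30. RefSeq promoters were matched for 6 of the 7 genes, all but Hbb-bh1. In the 250 bases before the start site, on either strand, CACCC was found in 6 of 6, against 52.0% of all 32851 promoters, CCAAT in 5 of 6 (33.8%), ATATAA in 5 of 6 (9.10%), ATAAAA in 1 of 6 (17.0%) and GATAA in 6 of 6 (22.6%). Overlapping matches of different motifs were each counted. Hba-x had no CCAAT in this window, and Hbb-y was the gene with ATAAAA in place of ATATAA. Likeness between the promoters of an adult-type pair was not measured, so these may not be independent matches.

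Of the other globin genes of the clusters, the 6 listed ones were low. Hbb-bh2 had 0 counts in both libraries, Hbq1a 0 and 2 counts, Hbq1b 8 and 1, and the pseudogene Hbb-bh3 1 and 0 in replicates 1 and 2. With 0 counts, Hbb-bh2 could hold up to 0.796 TPM in replicate 1 and 0.930 TPM in replicate 2. The pseudogenes Hbb-bh0 (19 and 21 counts) and Hba-ps4 (9 and 10 counts) were higher, and Hbb-bh0 reached 17.4 and 22.4 TPM over its 129 listed bases. Adding these 6 genes moved the embryonic-type share by less than the spread between the libraries. Of 6 neighbours of the alpha cluster, 5 had at least 1 TPM in both libraries, as did 44.4% of all listed genes. The highest were Sh3pxd2b, a scaffold protein gene (72.6 TPM in replicate 1 and 85.3 TPM in replicate 2), Snrnp25, a minor spliceosome gene (47.6 ± 2.05 TPM), and Rhbdf1, an inactive rhomboid gene (46.2 ± 1.51 TPM). Nprl3, whose introns hold the main enhancers of the alpha cluster and which was picked after its values were seen, stood at 19.2 ± 0.938 TPM.

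Between the libraries, the globins did not all differ in 1 direction. The ratio of replicate 1 to replicate 2 was taken from counts scaled by TMM, with exact 95% intervals from the 2 counts. These cover counting error only and compare 2 libraries of the same group, so no p-value was computed. At a log2 ratio of at least 0.32 in either direction, 1 of 7 globins was past the limit, against 23.6% of the 19433 genes whose summed counts reached 10 and 9.68% of the 14093 genes whose summed counts reached 100 (4.01% higher in replicate 1 and 5.67% higher in replicate 2). All 7 globins had over 100 counts, and 1 of 7 lies between these shares, so the count is no result about the globins. That gene was Hba-a2, with a log2 ratio of -0.36 (95% interval -0.47 to -0.26). Its partner Hba-a1 had a ratio of 0.19 (0.12 to 0.26), in the opposite direction, while the sum of the pair had 0.02 (-0.03 to 0.08).

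In the beta cluster the embryonic and adult-type genes lay on opposite sides. Hbb-y had a log2 ratio of 0.15 (0.12 to 0.18) and Hbb-bh1 of 0.21 (0.03 to 0.39), higher in replicate 1. Hbb-bs had a ratio of -0.17 (-0.24 to -0.10) and Hbb-bt of -0.12 (-0.23 to -0.02), lower in replicate 1. Hba-x had 0.0046 (-0.07 to 0.08), which was -0.0005 when the scaling used genes with at least 100 counts and -0.02 by TPM. All 4 beta-type ratios were within this limit, and their signs were the same under the 7 other scalings and added counts tried. The share of all counts held by the 7 globins was 0.148% in replicate 1 (95% Clopper-Pearson interval 0.146 to 0.149) and 0.138% in replicate 2 (0.137 to 0.140).

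Other genes of red cells lay further apart between the libraries. Of 24 erythroid genes outside the globins, 23 had at least 1 TPM in both libraries, as did 44.4% of all listed genes. With the higher level in replicate 2, 15 were past the limit, against 12.9% of all genes tested. None was past it with the higher level in replicate 1, against 10.7% of all genes. Among the 15, Gata1, Epor, Rhag, Rhd and Kel had 95% intervals that reached above 0. The median log2 ratio of this list was -0.49, against 0.0046 for the 7 globins and 0.0030 for all genes tested. Their summed level was 356 TPM in replicate 1 and 434 TPM in replicate 2. Among the highest members were Tfrc, the transferrin receptor gene, at 54.1 ± 4.08 TPM, and Fech, the gene of the last enzyme of heme synthesis, at 51.7 ± 3.04 TPM, both used by other cells too. Slc4a1, the gene of the red cell membrane's anion exchanger band 3, picked after its values were seen, had 710 counts in replicate 1 and 909 in replicate 2. Its log2 ratio was -0.55 (-0.70 to -0.41).

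Hepatoblast genes, markers of the fetal liver, lay on the same side as the red cell list. Of the 10 listed, 8 had at least 1 TPM in both libraries, as did 44.4% of all listed genes. All 10 were past the limit with the higher level in replicate 2, against 12.9% of all genes tested. The 95% interval of Serpina1a, from 5 and 11 counts, reached above 0. The median log2 ratio of the 10 was -1.28, and their summed level was 145 TPM in replicate 1 and 356 TPM in replicate 2. The highest were Afp (104 ± 64.5 TPM), Alb (69.8 ± 47.9 TPM) and Trf, the transferrin gene (33.03 ± 12.1 TPM). The adult-type share of globin TPM was 23.6% in replicate 1 and 26.3% in replicate 2, on the same side as these liver genes. The beta cluster carried this difference: the adult-type share of alpha-type TPM was 68.1% in replicate 1 and 68.2% in replicate 2, and Hba-a1 lay on the opposite side. The part of liver tissue in the globin values was not tested.

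All 8 genes of the heme pathway, which supplies the prosthetic group of globin, had at least 1 TPM in both libraries. This level was reached by 44.4% of all listed genes. Of the 8, 1 was past the limit on the side of replicate 1 and none on that of replicate 2. Each of the 8 had over 100 summed counts, and 4.01% and 5.67% of such genes were past it on these sides. The median log2 ratio was -0.04. Among the highest were Alad, of the second step of the pathway (135 ± 27.8 TPM), and Urod, of a later step (61.6 ± 0.80 TPM). Fech and Alas2 are also in the red cell list. Alas2, the erythroid form of the first enzyme, stood at 25.2 ± 2.86 TPM.

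Regulators of the switch between embryonic and adult-type globins were present at a range of levels. All 22 had at least 1 TPM in both libraries, as did 44.4% of all listed genes. Past the limit were 1 regulator on the side of replicate 1 and 5 on that of replicate 2. For all genes tested these shares were 10.7% and 12.9%, and the median log2 ratio of the regulators was -0.10. Klf1, Gata1 and Nfe2, which are among those 5, and Tal1 are also in the red cell list, so the lists are not separate. The highest were Chd4, a chromatin remodeller gene (290 ± 12.2 TPM), Ldb1, which bridges enhancer and promoter complexes (228 ± 3.77 TPM), and Igf2bp3, an RNA-binding protein gene (157 ± 2.88 TPM), which many embryonic cells use. Named after their values were seen, Klf1 stood at 5.04 ± 2.13 TPM, Bcl11a, a repressor of embryonic-type globins in definitive cells, at 13.1 ± 1.005 TPM, and Myb, a regulator needed for definitive but not primitive red cells, at 3.54 ± 0.229 TPM. Which cells of the folds hold these transcripts was not measured.

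Macrophages and megakaryocytes share early origins with red cells. Of 7 macrophage genes, 1 was past the limit on the side of replicate 1 and none on that of replicate 2 (median log2 ratio 0.09). Each of the 7 had over 100 summed counts, and 4.01% and 5.67% of such genes were past it on these sides. The list was led by C1qb at 98.1 ± 1.83 TPM, Tyrobp at 81.2 ± 7.53 TPM and C1qa at 78.4 ± 17.9 TPM. Of the 6 megakaryocyte genes, 5 had summed counts of at least 10, as did 19433 of all 38926 listed genes. The highest were Pf4 (35.2 ± 1.39 TPM), Gp1bb (18.7 ± 0.208 TPM) and Itga2b (3.84 ± 0.452 TPM). Past the limit was 1 of the 5, Ppbp, higher in replicate 1 from 24 and 16 counts, with an interval of -0.58 to 1.40. None was past it on the side of replicate 2. The median log2 ratio of these 5 was -0.05. All 7 PPF and muscle genes looked at (Wt1, Gata4, Tbx5, Pdgfra, Aldh1a2, Myod1 and Myog) had at least 1 TPM in both libraries. As 44.4% of all listed genes did so too, this is no test of the tissue. None of the 7 was past the limit, against 9.68% of the genes whose summed counts reached 100.

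**Figure D4:**
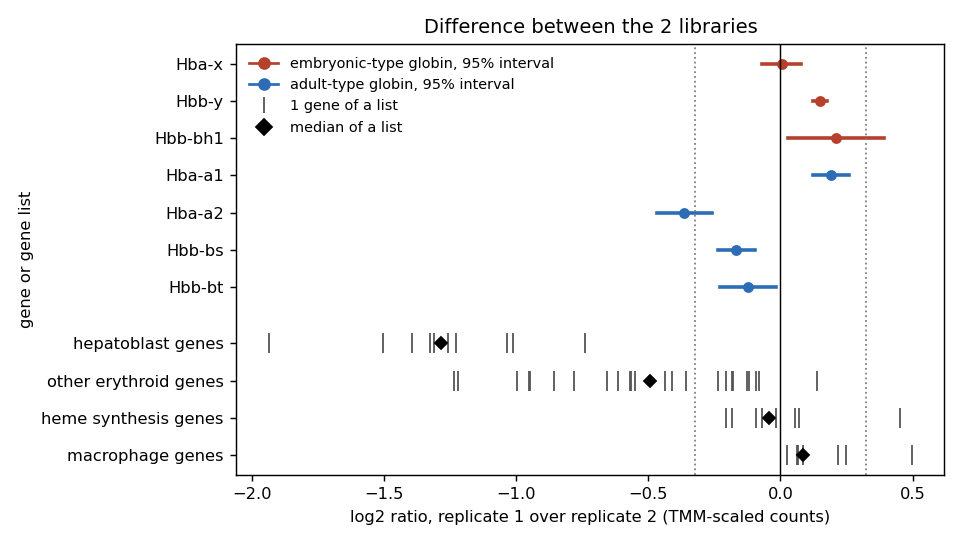
Log2 ratio of replicate 1 over replicate 2, from TMM-scaled counts, for the 7 globins (points with exact 95% intervals of the counts) and for the genes of 4 lists (ticks, median as a diamond). Dotted lines mark a log2 ratio of 0.32 in either direction. The globins lie between -0.36 and 0.21, while the hepatoblast genes have a median of -1.28 and the other erythroid genes of -0.49.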

How the data were processed

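Poly(A)-selected stranded RNA libraries were analysed as deposited. Per the submitters' processing notes, the tools were STAR 2.4.0a, SAMtools 1.3 and featureCounts, with mm9 named as the build. The deposited gene positions overlapped those of GENCODE M21 (GRCm38) for 99.8% of 35656 shared symbols, and those of the 7 globins lay within 24 bases of it, so positions are given as GRCm38. The deposited counts are raw reads per gene, and the deposited TPM equal those counts over the listed gene length, rescaled, as a recomputation showed. Symbols were matched exactly. Shares and SDs were computed from both units, and intervals (exact, 95%) and the floor of 3 counts for a gene at 0 cover counting error only, since PCR copies were not told apart from separate molecules. Ratios used counts plus 0.5 and TMM factors from edgeR 4.0.16 over genes with at least 10 counts; DESeq2 1.42.0 size factors were an alternative. The ratio and window steps were tested on simulated data.

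The members, lists and limits were chosen with earlier results of these data known. Named were the 7 members, the other globin genes and the 3 highest genes of each list by mean TPM, with exceptions stated; some genes of the lists are not reported here by name. Of the lists, 24 of 26 erythroid genes, 7 of 8 macrophage genes and 6 of 9 other globins of the clusters were matched. Endothelial genes (Cdh5 at 73.5, Kdr at 49.8 and Pecam1 at 31.4 TPM were highest) had a median log2 ratio of -0.09 over 6 genes.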

Additional observations from a re-analysis of the deposited data

How the results depend on the processing

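The mean embryonic-type share of globin TPM was 75.03%. It was 72.4% by counts, 85.5% for beta-type genes alone, 41.1%, 45.6% and 49.1% by unique windows of 50, 75 and 100 bases, and 34.9% by 75-base windows from the RefSeq start sites, a setting added after the data were seen. By counts the share of beta-type genes alone was 82.8%. The mean alpha-type share was 19.5% by TPM, 22.5% by counts, 41.9%, 36.4% and 32.4% by unique windows of 50, 75 and 100 bases, and 51.6% from the RefSeq start sites. These shifts follow from dividing adult-type counts by fewer windows, and which setting matches the authors' counting is not known. The 7 globins held 0.143% of counts and 0.637% of TPM. Leaving out either library only returns the value of the other, so it is no separate check. Those values were 73.7% and 76.4% by TPM and 71.1% and 73.8% by counts for the embryonic-type share. They were 18.9% and 20.1% for the alpha-type share and 0.138% and 0.148% for the share of all counts. The summed levels were 6245 and 6501 TPM. A ratio between libraries needs both, so none was left out there. Of 19433 genes, 4590 were past a log2 ratio of 0.32, against 9745 with no filter on low counts, 1364 of 14093 with at least 100 counts (9.68%), 2179 at 1.5-fold and 803 at 2-fold. Hba-a2 was the 1 globin past that limit under all 8 scalings and added counts. No paired analysis was possible because the series holds a single group. With 576 and 435 counts, Hbb-bh1 had the widest interval of the 7 ratios.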

Other observations

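Globins outside the 2 clusters were lower in the folds than the 7 globins of the clusters. Cygb, the gene of cytoglobin, which fibroblast-like cells are known to make, stood at 22.7 TPM in replicate 1 and 23.5 TPM in replicate 2. Mb, the gene of myoglobin, the oxygen store of mature muscle, stood at 7.34 and 5.16 TPM, from 78 and 47 counts. Ngb (neuroglobin) had 3 and 11 counts and Adgb (androglobin) 7 and 12 counts in replicates 1 and 2. Each of the 4 was lower in TPM than Hbb-bh1, the lowest of the 7 globins of the clusters, in both libraries.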
